A study of Macaca mulatta with 20 samples.

Results

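T cells recognize antigen through the T cell receptor, whose signal is carried by the CD3 chains and CD247 and strengthened by the co-receptors CD4 and CD8. The kinases LCK and ZAP70 pass the signal to adapters such as LAT, and transcription factors such as TCF7, GATA3, TBX21 and EOMES set the fate of the cell. In blood these transcripts come mainly from circulating lymphocytes, which are among the most radiosensitive of blood cells, and several of them are shared with natural killer (NK) cells.

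The 39 genes described here are T cell receptor signaling and T cell identity genes. They were listed by name, with earlier results of these data known. For each gene the probe with the highest mean signal was used among the probes that were well above background on at least 5 of 20 arrays. Such a probe was found for 36 of the 39 genes, out of 15929 gene names and 19961 probes that passed this filter in the whole data set. The probes of CD96 and THEMIS were well above background on 0 of 20 arrays. The probe of MAL was well above background in replicate 2 of each of the 4 groups and on no other array, so none of these 3 genes was tested.

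The samples were globin-depleted whole blood RNA of male rhesus macaques (Macaca mulatta) of Chinese origin, hybridized to 1-color Agilent Whole Human Genome 4x44K v2 arrays. All animals received 10 Gy of X-rays to the whole thorax without a mitigator, and 5 arrays each measured blood drawn before irradiation (pre-irradiation) and 2, 5 and 30 days after it. There was no sham-irradiated group, so time, repeated bleeding and irradiation cannot be told apart. The methods give an age range for the whole cohort but no age for the animal behind an array. The methods state that RNA of different animals was pooled in 1 case, and the labels do not say which array this was. The labels give a replicate number and name no animal. Arrays of the same number are taken below as 1 animal, because the methods compare matched animals, but the labels do not state this. The probes carry human sequence, so a level also depends on how well the macaque transcript matches its probe, and a brighter probe does not show a more abundant transcript.

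The labels name whole blood and no cell type. Of the defining T cell markers, CD3D, CD3E, CD3G, CD247, CD2, CD5 and CD28 were well above background on 20 of 20 arrays, the same mark that the filter used. So were 34 of the 36 genes, the exceptions being CTLA4 with 19 arrays and TXK with 13. A level below is the log2 processed signal minus the 75th percentile of the array, and a difference of 1 is a 2-fold difference in signal. The share of spots well above background lay between 50.9% and 67.3% per array.

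The arrays did not measure whole transcripts but stretches of 60 bases. The 4 probes printed here lie in coding exons and belong to genes that the comparisons below turn on. CD7 and PRKCQ had the smallest p-values at 30 days, ZAP70 is a kinase at the start of the cascade, and the probes of SH2D1A gave different results at 30 days. The hg19 positions are chr17:80273242-80273301 (minus strand) for CD7, chr10:6470188-6470247 (minus strand) for PRKCQ, chr2:98354523-98355849 (plus strand) for ZAP70 and chrX:123480511-123480570 (plus strand) for SH2D1A. The ZAP70 positions span 1327 bases, since its probe crosses an intron. The sequences are given 5' to 3' in the sense of the transcript, as in the array files, and all in lower case because no base is singled out.
CD7: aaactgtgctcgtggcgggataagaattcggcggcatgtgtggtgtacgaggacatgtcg
PRKCQ: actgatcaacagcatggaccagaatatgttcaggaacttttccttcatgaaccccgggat
ZAP70: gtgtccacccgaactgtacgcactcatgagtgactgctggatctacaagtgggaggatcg
SH2D1A: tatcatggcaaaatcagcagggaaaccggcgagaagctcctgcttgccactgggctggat

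At 2 days nearly all of the T cell genes read lower than before irradiation. The log2 change was negative in 35 of the 36 genes, against 55.1% of all probes tested. Its median was -0.46 over the 36 genes and -0.04 over all probes. The limits used in the study, a p-value under 0.005 with a false discovery rate (FDR) under 10%, were applied to limma p-values in place of the study's own test (Benjamini-Hochberg FDR). This call was met by 0 of the 36 genes and by 0.0601% of all probes (12 of 19961). Without the FDR limit, 5 of the 36 genes were lower at p under 0.005, against 0.656% of all probes. At p under 0.05, 20 genes were lower and 0 were higher, against 6.55% and 8.47% of all probes.

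At 5 days the log2 change was negative in 32 of 36 genes (45.3% of all probes), with a median of -0.37 against 0.03 over all probes. The call was met by 0 of 36 genes and 0% of all probes. At p under 0.005, 2 genes were lower (0.316% of all probes), and at p under 0.05, 14 were lower and 0 higher (3.82% and 7.35% of all probes). At 30 days the change was still negative in 34 of 36 genes (52.6% of all probes), with a median of -0.44 against -0.02. The call was again met by 0 of 36 genes and 0% of all probes. There were 2 genes lower at p under 0.005 (2% of all probes), and 15 lower and 0 higher at p under 0.05 (10.1% and 7.43% of all probes). These 3 comparisons share the pre-irradiation arrays and are not independent of each other.

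The replicates differed in the size of this shift but not in its direction. At 2 days the median change of the 36 genes was -0.85, -0.12, -0.38, -0.55 and -0.52 in replicates 1 to 5. At 5 days it was -0.37, -0.20, -0.32, -0.03 and -0.88, and at 30 days -1.05, -0.21, -0.38, -0.29 and -0.08. All 15 pairs were below 0, replicate 1 was lowest on days 2 and 30, and replicate 5 was lowest on day 5. The mean over pairs was -0.48 ± 0.27 (SD, n = 5) at 2 days, -0.36 ± 0.32 at 5 days and -0.40 ± 0.38 at 30 days. Whole blood was measured, so fewer T cells and less RNA per T cell cannot be told apart.

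**Figure D1:**
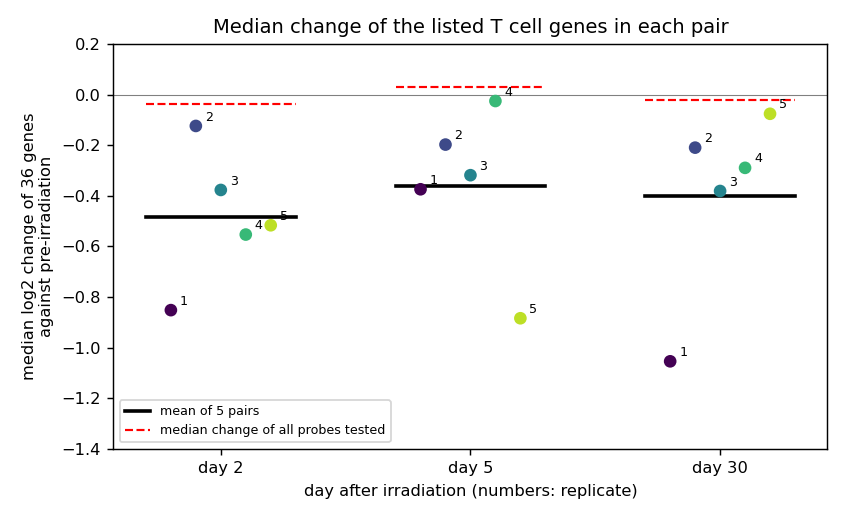
Median log2 change of the 36 T cell genes against pre-irradiation in each of the 5 pairs (numbers: replicate), with the mean of the pairs (black bar) and the median change of all probes tested (red dashed line). All 15 points lie below 0, from -0.03 for replicate 4 on day 5 to -1.05 for replicate 1 on day 30.

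The chains of the T cell receptor complex carry the signal from the receptor into the cell. By the brightest probe of each gene, all 4 had a negative log2 change on each day, but the probes of CD247 differed in sign. The median of the 4 was -0.50 at 2 days, -0.23 at 5 days and -0.46 at 30 days. Their order differed between days, with CD3G and CD3D lowest at 2 days and CD3E lowest at 30 days.

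CD3D, the delta chain, read 5.54, 5.23, 5.39, 5.35 and 4.93 in replicates 1 to 5 before irradiation and 4.63, 5.13, 4.61, 4.51 and 4.70 at 2 days. It read 5.45, 5.19, 4.98, 6.21 and 4.27 at 5 days and 4.35, 4.88, 5.17, 5.13 and 5.33 at 30 days. Each animal was lower at 2 days than before, with 1 of the 5 day 2 arrays above the lowest pre-irradiation array, and replicate 4 was above all others at 5 days. The change was -0.57 ± 0.18 (SE, 5 pairs) at 2 days (limma adjusted p = 0.236), -0.07 at 5 days and -0.32 at 30 days. Over the alternatives the 2-day change lay between -1.02 and -0.49. Single animals decided the later values, which were 0.08 at 5 days without replicate 5, -0.30 without replicate 4, and -0.10 at 30 days without replicate 1.

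CD3G, the gamma chain, read 5.21, 4.15, 4.88, 4.64 and 4.45 before irradiation and 4.08, 4.11, 3.83, 4.22 and 3.94 at 2 days. It read 4.29, 4.12, 4.27, 5.30 and 3.43 at 5 days and 3.72, 3.52, 4.53, 5.05 and 3.69 at 30 days. The day 2 arrays lay close together, all lower than their own pre-irradiation array, although replicate 2 differed only slightly. The change was -0.63 ± 0.20 at 2 days (limma adjusted p = 0.236), -0.38 at 5 days and -0.56 at 30 days.

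CD3E, the epsilon chain, read 0.80, -0.03, 0.33, 0.42 and 0.14 before irradiation and 0.43, 0.30, 0.27, -0.09 and -0.24 at 2 days. It read 1.11, 0.11, -0.07, -0.06 and -0.12 at 5 days and 0.16, -0.24, -0.62, -0.14 and -0.73 at 30 days. The pre-irradiation and day 2 arrays overlapped, and only at 30 days was the gene lower in 5 of 5 animals. The change was -0.20 ± 0.17 at 2 days, -0.13 ± 0.17 at 5 days and -0.64 ± 0.18 at 30 days (limma adjusted p = 0.163).

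CD247, the zeta chain, read 0.60, 0.76, 0.04, 0.34 and 0.36 before irradiation and -0.37, 0.58, 0.36, 0.13 and -0.69 at 2 days. It read 0.54, 0.57, -0.16, 0.52 and -1.03 at 5 days and -0.81, 0.89, -0.23, 0.59 and -0.13 at 30 days. The groups overlapped throughout, with replicates 1, 3 and 5 lower at 30 days than before irradiation and replicates 2 and 4 higher. The change was -0.42 ± 0.23 at 2 days, -0.33 ± 0.24 at 5 days and -0.36 ± 0.25 at 30 days. A dimmer probe of CD247, well above background on 13 arrays, had changes of the other sign on each day (0.59, 1.17 and 0.26), so no direction can be given for this gene.

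The co-receptors mark the helper and the cytotoxic lineages. By their brightest probes CD8A and CD8B, the chains of CD8, were lowest at 2 days and CD4 at 30 days, but the probes of CD8B differed in this. CD8A, which NK cells of macaques also carry, read 4.05, 4.09, 4.29, 4.12 and 3.87 before irradiation and 3.01, 3.53, 3.16, 3.66 and 2.77 at 2 days. It read 3.54, 3.43, 3.24, 4.19 and 2.91 at 5 days and 3.34, 3.88, 4.04, 4.17 and 3.93 at 30 days. All 5 day 2 arrays were below all 5 pre-irradiation arrays, which held for 2 of the 36 genes (the other was SKAP1) and 1.09% of all probes. The change was -0.86 ± 0.17 at 2 days (limma adjusted p = 0.148), -0.62 ± 0.19 at 5 days (limma adjusted p = 0.344) and -0.21 ± 0.18 at 30 days. A second CD8A probe, well above background on 20 of 20 arrays, had smaller early changes (-0.43, -0.24 and -0.32).

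CD8B read 5.33, 4.67, 4.75, 4.90 and 4.20 before irradiation and 3.96, 4.51, 4.15, 4.41 and 3.38 at 2 days. It read 4.92, 4.16, 4.29, 4.72 and 3.63 at 5 days and 3.69, 4.31, 4.44, 4.70 and 3.93 at 30 days. Every animal was lower on each of the 3 days than before, although the groups overlapped. The change was -0.69 ± 0.20 at 2 days (limma adjusted p = 0.217), -0.43 ± 0.14 at 5 days and -0.56 ± 0.24 at 30 days. Of its other 2 probes, both well above background on 20 of 20 arrays, 1 had changes of -0.72, -0.49 and -0.66 and the other was lowest at 30 days (-0.47, -0.09 and -0.68).

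CD4, which monocytes also carry, read 4.49, 4.41, 4.92, 4.70 and 4.31 before irradiation and 4.58, 4.64, 4.51, 4.33 and 4.00 at 2 days. It read 4.83, 4.23, 4.33, 4.16 and 4.10 at 5 days and 3.96, 3.99, 4.22, 3.23 and 3.85 at 30 days. All 5 day 30 arrays were below all 5 pre-irradiation arrays, and replicate 4 was the lowest of them. The change was -0.15 ± 0.16 at 2 days, -0.23 ± 0.18 at 5 days and -0.72 ± 0.20 at 30 days (limma adjusted p = 0.165).

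**Figure D2:**
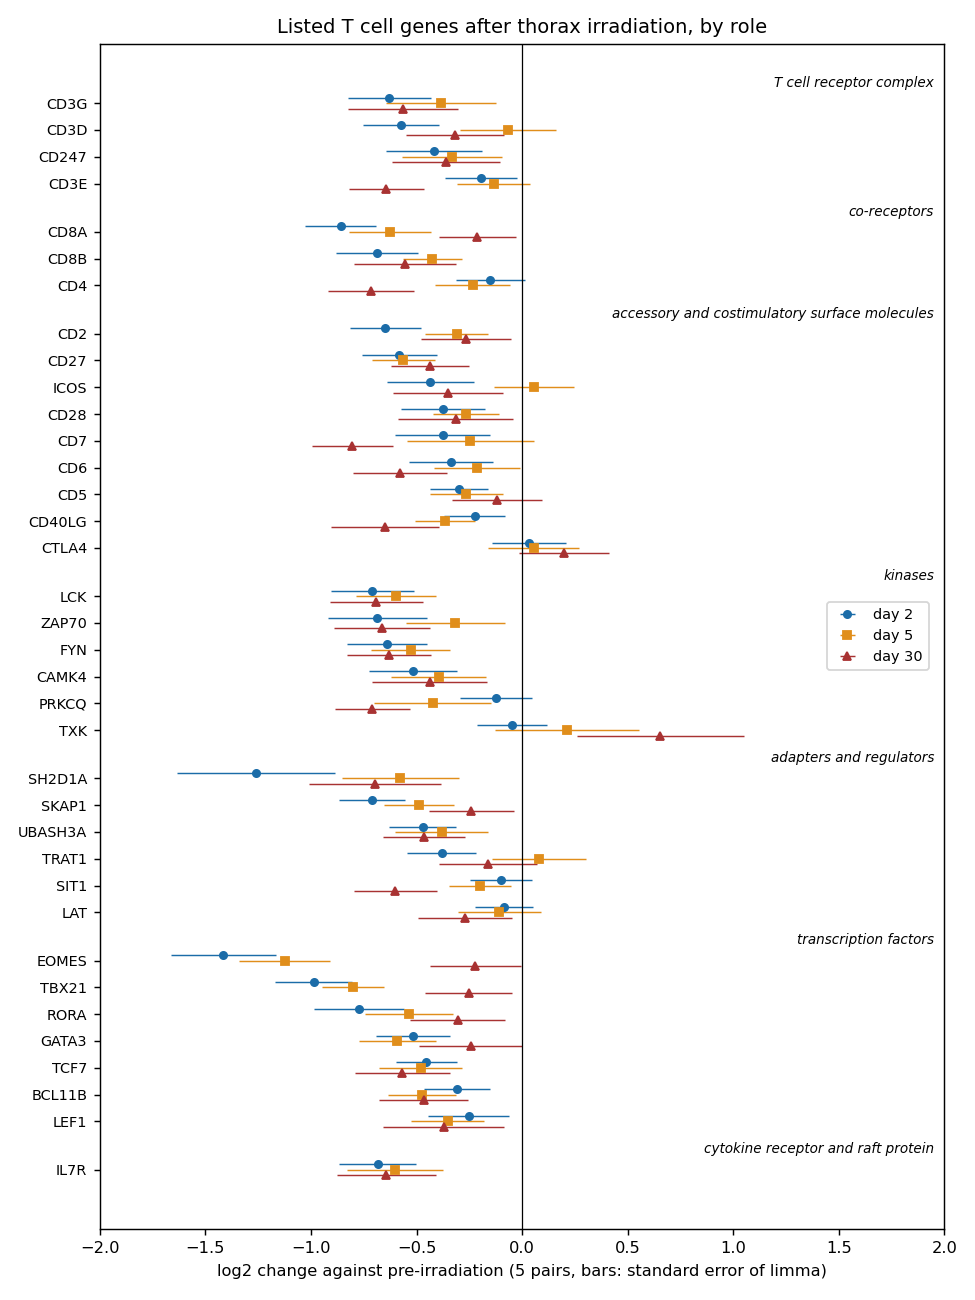
Log2 change against pre-irradiation (x axis) of the 36 T cell genes, grouped by role, at day 2 (blue circles), day 5 (orange squares) and day 30 (red triangles). Points are means of 5 pairs and bars are the standard error from limma. EOMES has the lowest value, -1.42 on day 2, and TXK the highest, 0.65 on day 30.

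The transcription factors held the gene with the largest change on days 2 and 5, EOMES. On day 2 this did not hold with normexp background correction (-0.78, against -1.36 for TBX21) or without replicate 2 (-1.61, against -1.63 for SH2D1A). All 7 had a negative change on each of the 3 days, and 5, 6 and 1 of them were lower at p under 0.05 on days 2, 5 and 30 (6.55%, 3.82% and 10.1% of all probes), so that the count at 30 days was near the background. EOMES (eomesodermin), a T-box factor of memory CD8 T cells and NK cells, read 0.28, -0.58, 0.45, 0.60 and 0.46 before irradiation and -1.60, -1.22, -1.37, -0.15 and -1.53 at 2 days. It read -0.96, -1.32, -0.25, -0.34 and -1.54 at 5 days and -0.53, -0.03, 0.16, 0.45 and 0.05 at 30 days. Each animal was lower at 2 and 5 days than before, and the groups overlapped only through the low pre-irradiation array of replicate 2 and the high arrays of replicates 3 and 4 afterwards.

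The change of EOMES was -1.42 ± 0.25 at 2 days (limma adjusted p = 0.139), -1.13 ± 0.22 at 5 days (limma adjusted p = 0.279) and -0.22 ± 0.22 at 30 days. TBX21 (T-bet), which directs type 1 helper, cytotoxic T and NK cells, read 3.71, 3.0, 3.44, 3.20 and 2.75 before irradiation and 2.85, 2.14, 1.78, 2.29 and 2.11 at 2 days. It read 2.96, 2.07, 2.36, 2.52 and 2.19 at 5 days and 2.88, 2.86, 2.88, 3.16 and 3.05 at 30 days. Each animal was lower at 2 and 5 days, and the overlap came from replicate 1, the highest array before irradiation and on both of these days. The change was -0.99 ± 0.18 at 2 days (limma adjusted p = 0.143), -0.80 ± 0.15 at 5 days (limma adjusted p = 0.279) and -0.25 ± 0.21 at 30 days.

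RORA, a nuclear receptor of type 17 helper and innate lymphoid cells, had changes of -0.77, -0.54 and -0.30 on days 2, 5 and 30, nearer to 0 each time. GATA3, the type 2 helper factor, had changes of -0.52, -0.59 and -0.24. TCF7 and LEF1 are factors of naive and memory T cells. The changes of TCF7 were -0.45, -0.48 and -0.57 (-0.75, -0.85 and -1.20 by a second probe) and those of LEF1 were -0.25, -0.35 and -0.37 (-0.13 at 30 days without replicate 1). BCL11B, which fixes the T cell fate in the thymus, had changes of -0.31, -0.47 and -0.47.

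Of the adapters and regulators, SKAP1, which links the receptor to integrin adhesion, had the smallest p-value at 2 days. It read 4.12, 3.85, 4.09, 4.30 and 3.68 before irradiation and 3.32, 3.54, 3.35, 3.60 and 2.67 at 2 days. It read 3.75, 3.49, 3.58, 4.09 and 2.67 at 5 days and 3.19, 3.77, 3.80, 4.20 and 3.86 at 30 days. All day 2 arrays were below all pre-irradiation arrays, and replicate 5 was the lowest of them. The change was -0.71 ± 0.16 at 2 days (limma adjusted p = 0.166), -0.49 ± 0.16 at 5 days and -0.24 ± 0.20 at 30 days.

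SH2D1A (SAP), an adapter of the SLAM receptors in T and NK cells, had the second largest change at 2 days, -1.26 ± 0.37 (limma adjusted p = 0.225), with replicate 2 the only animal that was not lower. Leaving out 1 replicate gave changes from -1.63 to -0.88, and without replicate 2 the change of SH2D1A was the largest. At 30 days its brightest probe, printed above, gave -0.70, and its other 2 passing probes gave 0.05 and 0.02. These had changes of -0.56 and -1.25 at 2 days. UBASH3A, a phosphatase-like suppressor of receptor signaling, had changes of -0.47, -0.38 and -0.47. SIT1, a transmembrane inhibitor, had changes of -0.10, -0.20 and -0.60. TRAT1, which stabilizes the receptor at the surface, had changes of -0.38, 0.08 and -0.16. LAT, the scaffold that the kinases phosphorylate, had changes of -0.09 (-0.57 to -0.03 over the alternatives), -0.11 and -0.27.

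Among the accessory and costimulatory surface molecules, CD2, an adhesion receptor of T and NK cells, was the gene with p under 0.005 at 2 days. It read 4.98, 4.83, 4.75, 4.93 and 4.33 before irradiation and 3.81, 4.50, 4.11, 4.30 and 3.86 at 2 days. It read 4.44, 4.57, 4.22, 4.95 and 4.08 at 5 days and 3.95, 4.77, 4.59, 4.61 and 4.57 at 30 days. Each animal was lower at 2 days, and only replicate 2 lay above the lowest pre-irradiation array. The change was -0.65 ± 0.17 at 2 days (limma adjusted p = 0.195), -0.31 ± 0.15 at 5 days and -0.27 ± 0.21 at 30 days. A second CD2 probe, well above background on 20 of 20 arrays, had changes of -0.75, -0.32 and -0.74. By its p-value CD2 was the last gene inside the limit of 0.005, and IL7R, with a change of -0.68, was the first outside it.

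CD7, an early marker of T and NK cells, read 0.11, 0.03, 0.25, 0.73 and 0.54 before irradiation and -0.11, 0.46, -0.10, 0.13 and -0.60 at 2 days. It read 0.89, -0.04, 0.17, 0.43 and -1.01 at 5 days and -0.77, -0.38, -0.82, 0.29 and -0.68 at 30 days. At 30 days each animal was lower than before, and the array of replicate 4 was the highest of that day. The change was -0.38 ± 0.23 at 2 days, -0.25 ± 0.30 at 5 days and -0.80 ± 0.19 at 30 days (limma adjusted p = 0.141).

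The other surface molecules did not reach p under 0.005 on any day. CD27, a costimulatory receptor of the TNF receptor family, had changes of -0.58, -0.56 and -0.44 and was lower in 4, 5 and 5 of 5 animals. CD28, the main costimulatory receptor, had changes of -0.38, -0.27 and -0.31 (-0.40, -0.26 and -0.60 by a second probe), and its relative ICOS had changes of -0.43, 0.05 and -0.35. CD40LG, with which helper T cells activate B cells, had changes of -0.23, -0.37 and -0.65, and CD6 had changes of -0.34, -0.21 and -0.58. CD5, a dampener of receptor signaling, had changes of -0.30, -0.26 and -0.12. CTLA4, an inhibitory receptor, was the only gene whose change was positive on each of the 3 days (0.03, 0.05 and 0.20), with its largest standard error above its largest change.

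Of the 6 kinases, 4, 2 and 4 were lower at p under 0.05 on days 2, 5 and 30 (6.55%, 3.82% and 10.1% of all probes). LCK, which phosphorylates the CD3 chains, had changes of -0.71, -0.60 and -0.69 and was lower in 5 of 5 animals on each day. A second LCK probe, well above background on 20 of 20 arrays, had smaller changes of -0.26, -0.24 and -0.37. FYN, its relative, had changes of -0.64, -0.53 and -0.63. ZAP70, which binds the phosphorylated chains, had changes of -0.69, -0.32 and -0.66. At 30 days the arrays of CD4, LCK, FYN and UBASH3A were all below every pre-irradiation array, which is 4 of 36 genes against 1.19% of all probes.

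PRKCQ (protein kinase C theta), which connects the receptor to NF-kB, read -1.66, -1.43, -1.53, -1.03 and -1.26 before irradiation and -1.27, -1.39, -1.93, -1.35 and -1.60 at 2 days. It read -1.31, -1.49, -2.31, -1.10 and -2.83 at 5 days and -2.38, -1.84, -2.61, -1.48 and -2.16 at 30 days. The day 2 and pre-irradiation arrays overlapped. At 5 days each animal but replicate 1 was lower than before, replicates 2 and 4 only slightly, and each animal was lower at 30 days than before. The change was -0.12 ± 0.17 at 2 days, -0.42 ± 0.28 at 5 days and -0.71 ± 0.18 at 30 days (limma adjusted p = 0.147). With normexp background correction the changes of PRKCQ were 0.14, -0.15 and -0.19. Without replicate 5 the change at 5 days was -0.14.

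CAMK4, a calcium-dependent kinase, had changes of -0.52, -0.40 and -0.44, which were -0.31 and -0.11 on days 2 and 30 without replicate 1 and -0.22 on day 5 without replicate 5. TXK, a Tec family kinase, had changes of -0.05, 0.21 and 0.65 ± 0.39 (limma adjusted p = 0.419). Its probe was not well above background on 7 of 20 arrays, among them replicates 3 and 4 before irradiation, and its values spread widely. IL7R, the receptor for the T cell survival cytokine IL-7, had changes of -0.68, -0.60 and -0.64 and was lower in 5 of 5 animals on each day.

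**Figure D3:**
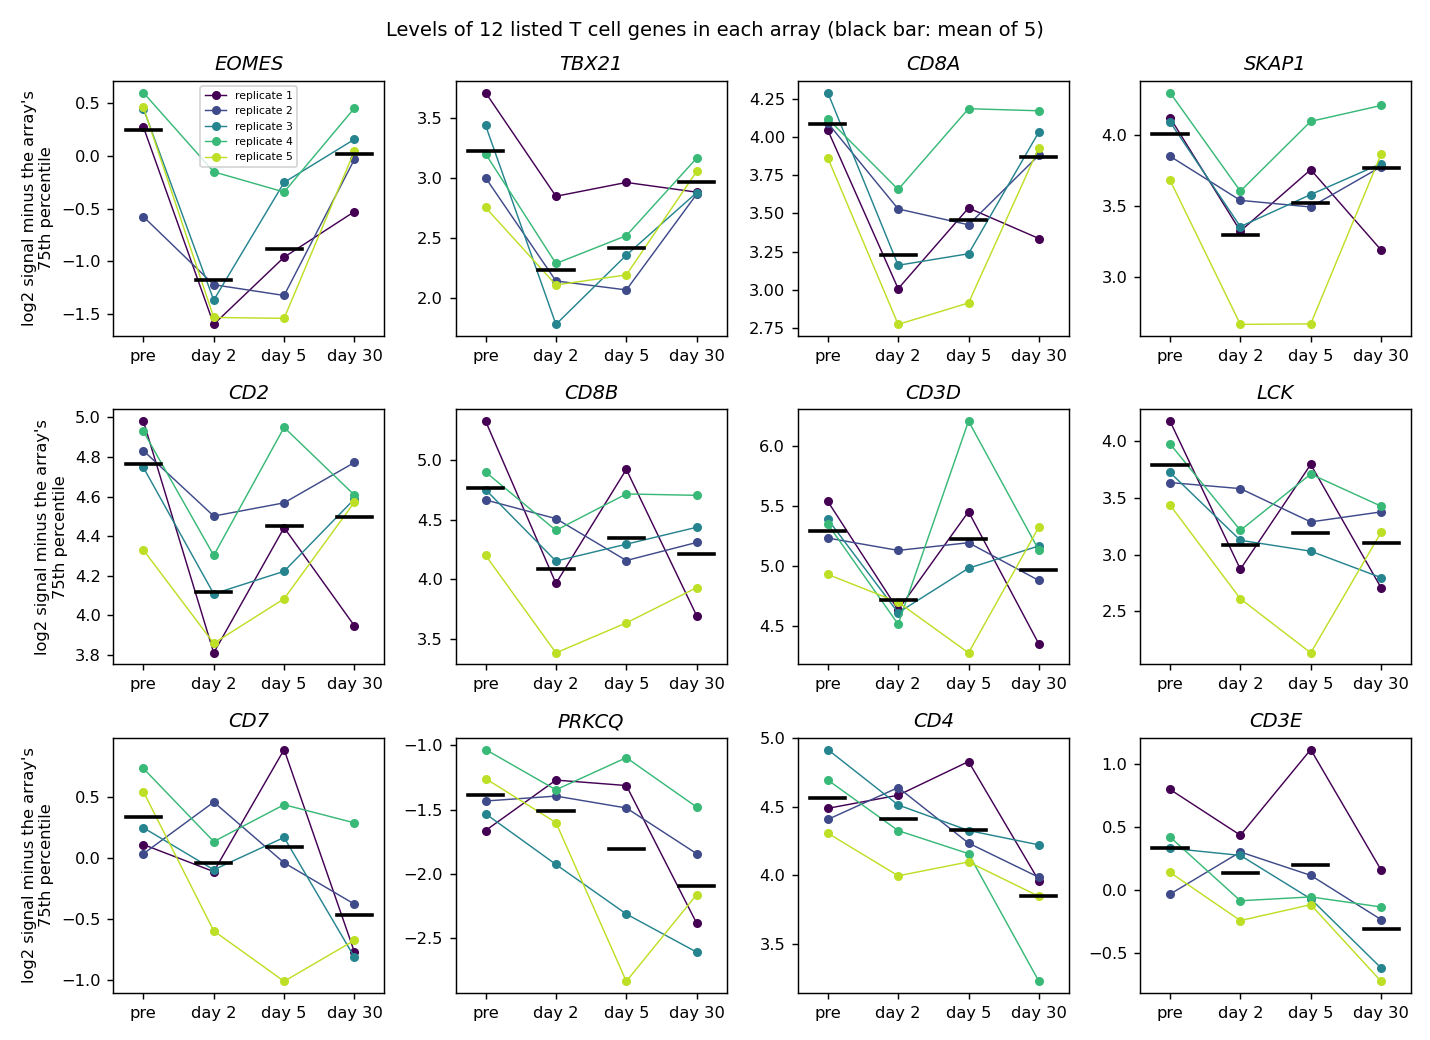
Level (log2 processed signal minus the 75th percentile of the array) of 12 T cell genes on each of the 20 arrays, with lines joining the arrays of 1 replicate and black bars for the mean of 5. In EOMES the mean goes from 0.24 before irradiation to -1.17 on day 2 and 0.02 on day 30, whereas in CD4 it goes from 4.56 to 4.41 and 3.85.

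Days 2 and 30 were also compared directly, which asks whether the early and the late levels differ without the pre-irradiation arrays. The log2 change from day 2 to day 30 was positive in 25 of the 36 genes and negative in 11 (49.8% of all probes), with a median of 0.06 against 0.00 over all probes. The animals were split, with the median of the 36 genes higher in 3 pairs and lower in 2 (-0.28 to 0.55). Leaving out 1 replicate turned the sign of 13 of the 36 genes. The call was met by 0 of 36 genes and 0.0501% of all probes. At p under 0.05, 5 genes were higher and 4 lower on day 30 (5.4% and 7.44% of all probes).

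The 5 higher genes were EOMES, TBX21, CD8A, CD2 and SH2D1A. EOMES was higher on day 30 in 5 of 5 animals by 1.19 ± 0.18 (limma adjusted p = 0.153) and was the only gene with p under 0.005, which 0.521% of all probes reached in this direction. TBX21 was higher by 0.74 ± 0.18 (limma adjusted p = 0.332), and all 5 day 30 arrays were above all 5 day 2 arrays, as in 0.907% of all probes. CD8A was higher by 0.65 ± 0.17 (limma adjusted p = 0.337) in 5 of 5 animals. The second probes of CD8A and CD2 had smaller changes from day 2 to day 30, 0.11 against 0.65 for CD8A and 0.0030 against 0.38 for CD2, so the difference of these 2 genes rests on 1 probe each.

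The 4 lower genes were PRKCQ, CD4, SIT1 and CD3E, each in 5 of 5 animals. PRKCQ was lower on day 30 by a log2 change of -0.59 ± 0.17 (limma adjusted p = 0.363) and CD4 by -0.56 ± 0.17 (limma adjusted p = 0.363). SIT1 and CD3E had changes of -0.50 and -0.45. Over the alternatives the changes nearest to 0 were -0.33 for PRKCQ, -0.22 for CD4, -0.28 for SIT1 and -0.23 for CD3E.

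Markers of NK cells and platelets also differed between days 2 and 30. All 11 measured NK cell markers were higher on day 30, with a median change of 1.22, and 9 had p under 0.05 (5.4% of all probes). KLRC1 (1.73) and KLRD1 (1.43), chains of NK cell receptors, were called (limma adjusted p = 0.0940 for both), against 0.0501% of all probes. All 7 measured platelet markers were lower at p under 0.005 (0.932% of all probes), with a median change of -1.66 and 0 called. The part of these cells in the values of the T cell genes was not tested.

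Between days 2 and 5, 0 of 36 genes had p under 0.05 in either direction (limma, 1.39% of all probes lower and 2.17% higher), and 0 of 36 genes and 0% of all probes were called, with a median change of 0.11. Between days 5 and 30, 2 genes were higher and 2 lower at p under 0.05 (1.84% and 6.64% of all probes), and EOMES was the only one at p under 0.005 (0.14% of all probes higher). EOMES (0.90, limma adjusted p = 0.561) and TBX21 (0.55) were higher on day 30, and CD3E (-0.51) and CD4 (-0.48) were lower. The 2 lower genes are 5.56% of the 36, no larger a share than among all probes (6.64%). In this comparison too 0 of 36 genes and 0% of all probes were called.

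Other genes of the T cell receptor pathway were measured with 40 of 41 listed names (BCL10 had no passing probe). Their median change was -0.21, -0.15 and -0.25 on days 2, 5 and 30, nearer to 0 than that of the 36 genes. At 2 days 11 of the 40 were lower and 2 higher at p under 0.05 (6.55% and 8.47% of all probes), and 0 were called (0.0601% of all probes). SLAMF6, a surface receptor that signals through SH2D1A, was lower by a log2 change of -1.02 ± 0.21 (limma adjusted p = 0.154). IL2RB, the IL-2 receptor chain shared by T and NK cells, followed with -0.86 ± 0.20 (limma adjusted p = 0.185).

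Among the next by p-value at 2 days were PDCD1, an inhibitory receptor (-0.64), PTPN22, a phosphatase (-0.55), and CBLB, a ubiquitin ligase (-0.64). SLAMF6, IL2RB and these 3 genes were lower in 5 of 5 animals. From day 2 to day 30, IL2RB (0.80) and PTPN22 (0.69) were higher at p under 0.005 (0.521% of all probes), whereas 0 of the 40 genes had p under 0.005 at 5 or 30 days against pre-irradiation (limma). At p under 0.05, 7 of the 40 were lower at 5 days (3.82% of all probes). At 30 days 4 were lower and 1 higher, which is no larger a share than among all probes (10.1% and 7.43%).

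Markers of other blood cells were read on the same arrays. Of the 12 NK cell markers 11 were measured, with GZMB the brightest probe, and CD160 did not pass the filter. Their median change was -1.32 at 2 days, -0.72 at 5 days and 0.03 at 30 days. At p under 0.05, 9 were lower and 1 higher at 2 days, the higher one being FCGR3A (0.69), which monocytes also carry, against 6.55% and 8.47% of all probes. The summed level of the 11 markers, as signal over the 75th percentile, had a median of 121 (93.7 to 188) over the pre-irradiation arrays, 95.5 (65.5 to 108) at 2 days, 97.3 (66.4 to 143) at 5 days and 162 (153 to 221) at 30 days.

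A list of genes also known from NK cells held 13 of the measured T cell genes. Their median change was -0.69, -0.49 and -0.30 on the 3 days, and that of the other 23 was -0.38, -0.37 and -0.47. The first set holds EOMES, TBX21, SKAP1 and CD2 but also CD7, which was lowest at 30 days, and it leaves out CD8A, so the other 23 are not all free of NK cell expression. The part of NK cells in the early values of the T cell genes was not tested.

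B cell markers (8 of 10 measured, CD79A the brightest, MS4A1 and PAX5 not passing the filter) had median changes of -0.50, -0.52 and -0.49, close to those of the T cell genes. Monocyte markers (9 of 10, CD14 the brightest) had 0.58, 0.37 and 0.53, and neutrophil markers (8 of 10, CSF3R the brightest, MMP8 not passing) had 1.01, 0.76 and 0.99. Platelet markers (7 of 8, PF4 the brightest, GP1BA not passing) had 1.47, 0.46 and -0.13, and erythroid markers (8 of 8, HBB the brightest) had -0.15, 0.11 and -0.77. LYZ and FCGR3B had no probe of that name.

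Summed levels, as signal over the 75th percentile, follow the brightest probes of a list. That of the neutrophil markers had a median of 306 (139 to 418) before irradiation, 590 (290 to 936) at 2 days, 382 (223 to 680) at 5 days and 401 (274 to 1067) at 30 days. Medians for the platelet markers were 74.5, 202, 91.9 and 56.7, for the monocyte markers 157, 229, 221 and 190, for the B cell markers 101, 71.2, 69.8 and 82.1, and for the erythroid markers 3151, 3606, 3934 and 2571. That of the 36 T cell genes was 414 (330 to 480) before irradiation, 281 (231 to 373) at 2 days, 346 (192 to 501) at 5 days and 341 (211 to 387) at 30 days. A larger share of RNA from cells that do not express a gene lowers the level of that gene in whole blood, and its part in the values was not tested.

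**Figure D4:**
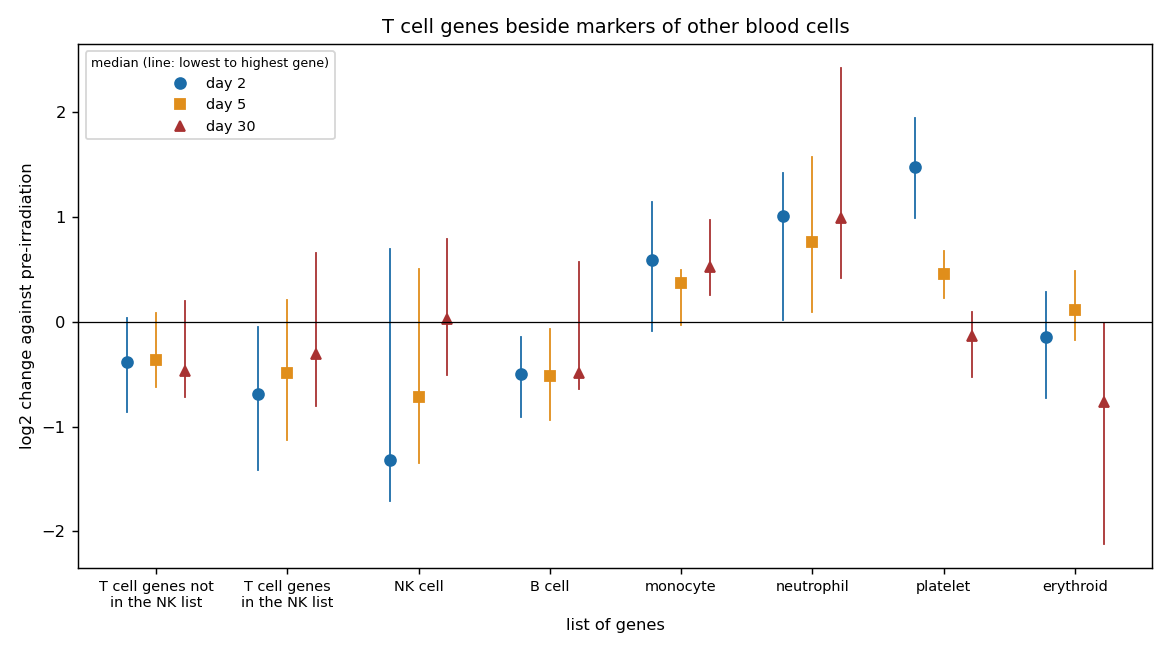
Median log2 change against pre-irradiation (points, by day) and the range from the lowest to the highest gene (lines) for the T cell genes, split by the list of 13 genes also known from NK cells (CD8A is not in it), and for markers of other blood cells. The NK cell median goes from -1.32 on day 2 to 0.03 on day 30, whereas that of the T cell genes not in this list stays between -0.37 and -0.47.

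Each of the 5 slides carried 1 array of every group, always at the same position, so position on the slide and group cannot be told apart. Of the 15 pairs with pre-irradiation, 1 lay on a single slide (replicate 2 at 5 days), so this value is in both sets of medians. Within slides the median change of the 36 genes was below 0 on 5 of 5 slides at 2 days (-0.84 to -0.0039) and at 30 days (-0.87 to -0.07), and on 3 of 5 at 5 days (-1.38 to 0.37). With the slide as the block in place of the replicate, 16, 3 and 15 genes had p under 0.05 on days 2, 5 and 30. Of all 19961 probes, 2372, 1001 and 2161 did so in either direction. With no block 17, 4 and 13 genes did, and 2191, 858 and 2929 of all probes.

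The counts at p under 0.005 turned on single animals. Without replicate 2, which had the smallest early shift, 11 genes had p under 0.005 at 2 days and 10 were called, EOMES, TBX21, CD8A, LCK and ZAP70 among them. Calls were more frequent over the whole array in this fit, where 4.18% of all probes had p under 0.005 and 2.95% were called. Without any other replicate 3 of the 36 genes had p under 0.005. Of all 19961 probes, 224, 324, 230 and 352 did so without replicates 1, 3, 4 and 5. At 30 days the median change of the 36 genes was -0.22 without replicate 1, and at 5 days it was -0.23 without replicate 5. For 12, 15 and 21 of the 36 genes on days 2, 5 and 30, leaving out 1 replicate brought the change over 1.5 times nearer to 0, and for 2, 7 and 2 it turned the sign. Normexp background correction moved the 2-day change to -1.29 for CD8A, -1.08 for SKAP1 and -1.08 for CD2, the 30-day change of CD7 to -0.53, and the change of EOMES from day 2 to day 30 to 0.63, where EOMES no longer had p under 0.005. Of the other passing probes of the 36 genes, 10 of 11 at 2 days, 10 of 11 at 5 days and 8 of 11 at 30 days had a change of the same sign as the brightest probe. It was 11 of 11 from day 2 to day 5, 7 of 11 from day 2 to day 30 and 6 of 11 from day 5 to day 30.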

How the data were processed

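Array processing. The 20 arrays were deposited by the authors as Agilent Feature Extraction output (version 12.0.2.2 per the file headers, 10.7 per the submitters' processing notes), with a table of log2 values for some of the probes. The deposited intensity used here is the processed signal, which Feature Extraction had corrected for background and spatial trend within each array but not between arrays. On each array at least 99.47% of the deposited log2 values equaled that signal on the log2 scale plus 1 constant for the array, within 0.001.

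Statistical analysis. Control spots and spots with an outlier mark (non-uniform or population) were dropped, and the log2 signals of a probe's spots were averaged. Each array was then scaled by subtracting its 75th percentile, which was taken over all its non-control spots, outlier-marked ones included. Probes well above background on at least 5 arrays (19961) were compared between the arrays of the groups concerned with limma 3.58.1 (R 4.3.3), with the replicate number as a block, since the methods compare matched animals. Arrays of the same number deviated together on days 2 and 5 against pre-irradiation (correlations of 0.12 to 0.65), and less clearly on day 30 (0.04 to 0.43). Between the later days the correlations were 0.02 to 0.46 (days 2 and 5), -0.16 to 0.49 (days 2 and 30) and 0.10 to 0.40 (days 5 and 30). P-values were adjusted by Benjamini-Hochberg over all probes. The study used the class comparison of BRB Array Tools, of which only the limits on p and FDR were kept. The number of arrays limits the precision.

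Choice of genes. The T cell genes, the other pathway genes and the marker lists were chosen with earlier results of these data known. Levels by array were given for the T cell receptor complex, the co-receptors and genes with p under 0.005 against pre-irradiation or between days 2 and 30. Of the other pathway genes, the 6 with the smallest p at 2 days and those with p under 0.005 were named, except 1 that is not reported here, and of each marker list the gene with the brightest probe and those not passing the filter. All 39 symbols occur in the RefSeq gene table of the rhesus macaque. Coordinates are those of human hg19 in the array files.

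The alternatives changed the scaling (quantile, median), the background (normexp, offset 50), the filter (none, or all 20 arrays), the values (deposited log2, or the mean over a gene's passing probes), the blocks (none, or the slide), the samples in the fit (all 20 arrays, or each replicate left out) and the spread (with an intensity trend, or for each probe alone). A fit of all arrays with both slide and replicate as blocks was chosen after seeing the data. The comparison was tested on simulated data.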

Additional observations from a re-analysis of the deposited data

Results flagged for a closer look

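Of 148 groups of 5 values checked (36 T cell genes and their median in 4 groups), 6 held an array whose gap to its nearest neighbor exceeded 0.71 of the range of the group (Dixon's limit for 5 values), and chance alone flags about 5% of groups. EOMES was involved in 2 of them. Before irradiation replicate 2 lay below the others (-0.58, the next being 0.28), and at 2 days replicate 4 lay above them (-0.15, the next being -1.22). CD3E of replicate 1 was high at 5 days (1.11, the next being 0.11), and CD2 of replicate 1 was low at 30 days (3.95, the next being 4.57). CTLA4 was low in replicate 3 before irradiation (-3.61, the next being -2.66), where its probe was not well above background. SIT1 was low in replicate 5 before irradiation (-0.35, the next being 0.21).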

How the results depend on the processing

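The log2 change of the 20, 14 and 15 T cell genes with p under 0.05 on days 2, 5 and 30 kept its sign under each alternative in which the gene was tested (355, 249 and 265 values). Many of these values could hardly differ from the main fit. Alternatives that changed only the filter, the blocks, the spread or joined all 20 arrays used the same levels of each gene. The sign was free to turn only with other scaling, background or values, or with a replicate left out. The median change of the 36 genes lay between -0.68 and -0.42 at 2 days, -0.51 and -0.23 at 5 days and -0.52 and -0.22 at 30 days, the fits that leave out a replicate included. Median scaling moved the median of all probes at 5 days from 0.03 to -0.11, and the median of the 36 genes with it to -0.51. The arrays limit the precision: for day 2 against pre-irradiation, log2 changes of 1, 1.5, 2 and 3 were called in 12, 29, 45 and 49 of 50 simulated probes each, and 17 unchanged probes were called. The simulated noise was independent between probes and between arrays, without a replicate effect. These rates hold for that setting and need not be those of the real arrays. The causes of the differences below were not tested, except that the deposited log2 values hold 26 of the 36 genes.

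The number of genes with p under 0.005 at 2 days was 8 with quantile normalization (476 of 19961 probes) or normexp (191). Restricting the probes to those well above background on all 20 arrays also gave 8 (531 of 15339). A joint fit of every array with the replicate block gave 9 (629 of 19961), as did an intensity trend (653). Besides the fit without replicate 2, genes were called at 2 days under 5 alternatives, with EOMES and TBX21 in each: a joint fit of all 20 arrays, with the replicate block (4 genes, 1.72% of all probes) or also the slide (2, 0.766%), the deposited values (4, 5.78%), the intensity trend (4, 1% of all probes) and probes well above background on all 20 arrays (4, 1.24%). At 5 days the number with p under 0.005 was 5 with normexp (389 of 19961 probes) and 1 with the slide as block (72). At 30 days it was 1 with median scaling (553) or no filter (603 of 34127), and 6 with normexp (950). It was 4 with probes well above background on all 20 arrays (733 of 15339) or an intensity trend (824). It was 0 with the deposited values (334 of 5653), the slide as block (130) or each probe tested on its own (364). Called at 30 days were 6 genes with normexp (CD3E, CD4, CD7, FYN, LCK, ZAP70; 4.52% of all probes), 4 with probes above background on all 20 arrays (4.53%) and 1, CD7, with the trend (2.26%). From day 2 to day 30 the number with p under 0.005 was 6 with normexp (225 of 19961 probes). The joint fit of every array with the replicate block gave 4 (438). Median scaling (313), the slide and replicate block (353) and the trend (329) gave 3 each. Probes above background on all 20 arrays also gave 3 (277 of 15339). EOMES was called from day 2 to day 30 under 4 alternatives, in which 0.17% to 0.995% of all probes were called. From day 5 to day 30 the number with p under 0.005 was 0 with no filter (173 of 34127 probes), the slide as block (87 of 19961) or each probe on its own (134).

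At p under 0.05, the deposited values gave 11, 9 and 7 of 26 genes on days 2, 5 and 30. Of all their probes, 1331 of 5653, 819 of 5676 and 1426 of 5653 passed in either direction. They gave 4 genes from day 2 to 30 (716 of 5727 probes) and 2 from day 5 to 30 (486 of 5742). Each probe on its own gave 8 at 30 days (2827 of 19961 probes). The slide as block gave 3 at 5 days (1001 probes), 2 from day 2 to 5 (714), 5 from day 2 to 30 (1215) and 2 from day 5 to 30 (1224). From day 2 to 5, normexp gave 2 (673 probes) and the mean over probes 1, and from day 5 to 30 all 20 arrays in one fit gave 7 (2409 probes).

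Without the replicate block, which pairs the arrays by number, 0 genes had p under 0.005 at 30 days (243 of 19961 probes). There were 2 from day 2 to 30 (217 probes) and 0 from day 5 to 30 (53). At p under 0.05 there were 4 at 5 days (858 probes) and 2 from day 5 to 30 (1110).

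With each replicate left out in turn, 3 to 11 genes had p under 0.005 at 2 days (224 to 834 of 19961 probes). There were 1 to 3 at 5 days (168 to 285 probes), 0 to 1 at 30 days (370 to 540), 1 to 2 from day 2 to 30 (156 to 585) and 0 to 1 from day 5 to 30 (67 to 229). At p under 0.05 there were 15 to 22 at 2 days (1791 to 4004 of 19961 probes), 7 to 17 at 5 days (1583 to 2291) and 7 to 16 at 30 days (2788 to 3021). There were 0 to 3 from day 2 to 5 (432 to 1106) and 1 to 5 from day 5 to 30 (876 to 2381). The 11 at 2 days were without replicate 2, the 7 at 5 days without replicate 5 (2291 probes) and the 7 at 30 days without replicate 3 (2918 probes).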

Other observations

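In some genes the highest array came from the same replicate at all times. CD3E was highest in replicate 1, CD247 and CD6 in replicate 2 and SKAP1 in replicate 4 in each of the 4 groups. TXK was read at -1.55, -2.09, -1.79 and -2.18 in replicate 1 before irradiation and on days 2, 5 and 30, and it was highest there in 3 of the 4 groups. MAL, the raft protein of T cells, was well above background only in replicate 2, in all 4 groups. These values were described after they were seen and were not tested.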
